A study of Mus musculus with 6 samples.

Results

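The genes that mark the epithelial and the mesenchymal state of a cell were followed in murine pancreatic ductal adenocarcinoma cells given G-1, a compound that activates the membrane oestrogen receptor GPER. They are 10 of the 24421 gene symbols in the deposited expression table, chosen by name: the epithelial adhesion genes Cdh1 and Epcam, the mesenchymal genes Cdh2, Vim, Fn1 and Sparc, and the transition transcription factors Zeb1, Snai1, Snai2 and Twist1. All 10 symbols were found. The groups were 250 nM G-1 for 16 hours and its vehicle DMSO, each applied to the lines 2838c3, 6419c5 and 6499c4, so that every line had 1 library per treatment and every treatment had 3. All cells were used at passages 15 to 20 and came from the Stanger laboratory, whose lines of this series are known from other work to be clones of tumours that arose in genetically engineered mice. No treatment was repeated within a line, and the labels do not say whether the libraries came from separate cultures. Each p-value therefore rests only on how unevenly the G-1 difference ran over the 3 lines in these 6 libraries, with variances pooled over genes. For pairs of lines, the G-1 and the vehicle library of a line stood in for its replicates.

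Epithelial cells are held together by E-cadherin, the product of Cdh1, and carry the adhesion molecule EpCAM on their surface. During an epithelial-mesenchymal transition the factors of the Snail, Zeb and Twist families bind short E-box sequences in epithelial promoters and repress them, while N-cadherin (Cdh2), the intermediate filament protein vimentin (Vim), fibronectin (Fn1) and the collagen-binding matrix protein SPARC appear. Pancreatic cancer cells are known to stop at intermediate states in which both sets of genes are read. Bulk libraries cannot tell cells that carry both messages from a mixture of cells that each carry one, nor fewer cells of a kind from less RNA per cell.

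The table gives FPKM, a level that takes out the length of the gene and the size of the library. Whole reads could be recovered from its steps, and they numbered 5455990 to 8645057 in the G-1 libraries and 7213624 to 8890821 in the vehicle libraries. The scaling of the libraries matched median-of-ratios size factors of those reads, which set the median gene about equal across libraries. A count of 0 allows up to 3 reads, or 0.337 to 0.550 RPM, depending on the library. Of the duct markers, the keratin genes Krt7, Krt8, Krt18 and Krt19 were each at 293 FPKM or more in every library, and the duct factor Sox9 was at 0.602 to 2.73 FPKM. The 8 fibroblast markers summed to 0.405 to 1.15 FPKM under G-1 and 0.433 to 1.33 FPKM under vehicle, and Dcn, Lum and Thy1 were at 0 in each library. Immune markers summed to 1.31 to 3.35 FPKM under G-1 and 0.788 to 2.62 FPKM under vehicle, with Adgre1 at 0.

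The 2 epithelial members were far apart in level. Cdh1 had 329 FPKM under G-1 and 352 FPKM under vehicle in 2838c3. It had 228 FPKM with G-1 and 233 FPKM with vehicle in 6419c5, and 169 FPKM with G-1 and 178 FPKM with vehicle in 6499c4. It ranked between place 153 and place 385 by FPKM in every library, and the levels of the 3 lines did not overlap. Epcam had 1.14 FPKM under G-1 and 0.284 FPKM under vehicle in 2838c3, 3.65 and 3.94 FPKM in 6419c5, and 5.81 and 4.66 FPKM in 6499c4, which rests on 20 and 5, 41 and 58, and 96 and 88 reads. The order of the lines for Epcam was thus the reverse of that for Cdh1, with 2838c3 highest for Cdh1 and lowest for Epcam. Within a library, the FPKM of Cdh1 was 29.0 to 1243 times that of Epcam.

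Cdh1 differed between all 3 lines beyond the spread of the libraries. In limma, with Benjamini-Hochberg adjustment over 10748 genes, Cdh1 was higher in 2838c3 than in 6419c5 by 0.56 on the log2(FPKM + 1) scale (SE 0.07, adjusted p = 0.000430) and than in 6499c4 by 0.97 (SE 0.07, adjusted p = 2.77e-05). It was lower in 6499c4 than in 6419c5, with a difference of -0.41 (SE 0.07, adjusted p = 0.00207). For Epcam the difference of 2838c3 from 6419c5 was -1.53 and from 6499c4 -1.91, both given with no test. Lines 6499c4 and 6419c5 did not differ in Epcam beyond their spread (0.37, SE 0.21, adjusted p = 0.187). Epcam averaged 0.710 FPKM in 2838c3 and passed the level filter through the other lines, and its fitted differences from that line ran from -2.51 to -1.21 and from -2.98 to -1.58 over the alternatives. Of the 9 members tested, 7 were called between 2838c3 and 6419c5, where 51.5% of all genes were. Another 7 of 9 were called between 2838c3 and 6499c4, where 55.6% of all genes were, and 8 of 9 between 6499c4 and 6419c5, where 45.0% were. The calls against 2838c3 include Epcam and Twist1, which entered the test through the other lines, so these counts are descriptions.

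**Figure D1:**
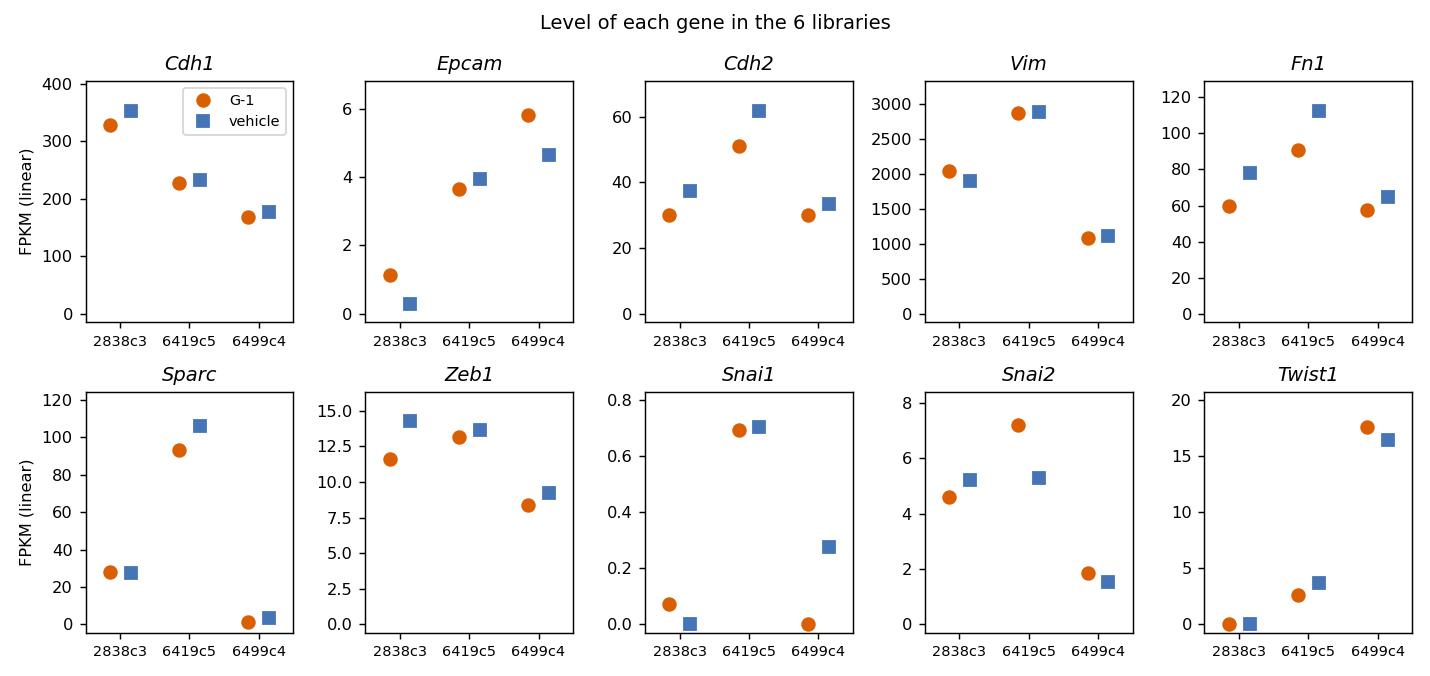
Level of each of the 10 genes in FPKM on a linear axis, by line, with the G-1 library as a circle and the vehicle library as a square. Cdh1 falls in the order 2838c3, 6419c5, 6499c4 and Epcam rises in it, Vim, Fn1, Cdh2 and Sparc are highest in 6419c5, and Twist1 is at 0 in 2838c3 and highest in 6499c4.

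The mesenchymal members stood beside Cdh1 at high levels. Vim had 2038 FPKM under G-1 and 1891 FPKM under vehicle in 2838c3, 2862 and 2878 FPKM in 6419c5, and 1087 and 1110.1 FPKM in 6499c4. It held place 3 in both libraries of 6419c5 and no place below 38 in any library, and its FPKM was 5.37 to 12.5 times that of Cdh1 in the same library. Fn1, which encodes a matrix protein that integrins bind, had 59.7 FPKM under G-1 and 78.0 FPKM under vehicle in 2838c3, 90.6 and 112 FPKM in 6419c5, and 57.6 and 64.6 FPKM in 6499c4. Line 6419c5 was the highest for both genes, and for Fn1 the libraries of 2838c3 and 6499c4 overlapped. Cdh2, the N-cadherin gene, had 30.2 FPKM under G-1 and 37.3 FPKM under vehicle in 2838c3, 51.0 and 61.7 FPKM in 6419c5, and 30.1 and 33.5 FPKM in 6499c4. All 6 libraries therefore held messages of both E-cadherin and N-cadherin, with 3.78 to 10.9 times as much FPKM of Cdh1 as of Cdh2. Sparc had 27.8 FPKM under G-1 and 27.4 FPKM under vehicle in 2838c3, 93.3 and 106 FPKM in 6419c5, and 1.42 and 3.39 FPKM in 6499c4, the widest span of the mesenchymal members.

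Line 6419c5 had more of each mesenchymal member than the other lines. Against 2838c3, the 4 genes were lower in 2838c3 by limma's test, with differences of -0.72 for Cdh2 (SE 0.08, adjusted p = 0.000320), -0.55 for Vim (SE 0.08, adjusted p = 0.00110), -0.56 for Fn1 (SE 0.08, adjusted p = 0.00103) and -1.81 for Sparc (SE 0.19, adjusted p = 0.000265). For 6499c4 against 6419c5 the differences in log2(FPKM + 1) were -0.80, -1.38, -0.72 and -4.94 in the same order of genes, with adjusted p of at most 0.000367. Between 2838c3 and 6499c4 the genes parted. Vim was higher in 2838c3 by 0.84 (SE 0.08, adjusted p = 0.000124) and Sparc by 3.13 (SE 0.19, adjusted p = 1.73e-05), whereas Cdh2 (0.08, SE 0.08, adjusted p = 0.429) and Fn1 (0.16, SE 0.08, adjusted p = 0.122) did not pass. With limma-voom on the recovered reads that difference of Fn1 was 0.17 and passed (adjusted p = 0.0333, against 0.0333 to 0.776 over all its alternatives).

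The transition factors differed between lines, with Twist1 highest in 6499c4, where Zeb1 and Snai2 were lowest. Zeb1, a zinc-finger repressor of Cdh1, had 11.6 FPKM under G-1 and 14.3 FPKM under vehicle in 2838c3, 13.2 and 13.7 FPKM in 6419c5, and 8.42 and 9.20 FPKM in 6499c4. Snai2, which encodes the repressor Slug, had 4.60 FPKM under G-1 and 5.23 FPKM under vehicle in 2838c3, 7.22 and 5.29 FPKM in 6419c5, and 1.86 and 1.52 FPKM in 6499c4, from 28 to 90 reads per library. For both genes the 2 libraries of 6499c4 lay below all others. Twist1, a basic helix-loop-helix factor, had 17.6 FPKM under G-1 and 16.4 FPKM under vehicle in 6499c4, 2.59 and 3.69 FPKM in 6419c5, and 0 reads in both libraries of 2838c3. Set against the floor of 3 reads per library (0.216 FPKM), the mean level of Twist1 was at least 78.9-fold higher in 6499c4 and at least 14.6-fold higher in 6419c5 than in 2838c3. Snai1, the gene of the repressor Snail, was hardly detected, with 1 read under G-1 and 0 under vehicle in 2838c3, 6 reads under G-1 and 8 under vehicle in 6419c5, and 0 reads under G-1 and 4 under vehicle in 6499c4, and it was the 1 member below the level filter of a mean of 1 FPKM.

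By limma's test Zeb1 was higher in 2838c3 than in 6499c4 by 0.50 (SE 0.11, adjusted p = 0.00578), and 6499c4 differed from 6419c5 by -0.56 (SE 0.11, adjusted p = 0.00513). These calls were lost without the vehicle library of 2838c3 (0.41, adjusted p = 0.0659, against 1.95e-05 to 0.0659 over all alternatives) and without the G-1 library of 6419c5 (-0.48, adjusted p = 0.0697, against 1.18e-05 to 0.0697). Snai2 differed in the same places, by 1.14 (SE 0.17, adjusted p = 0.00101) for 2838c3 against 6499c4 and by -1.42 (SE 0.17, adjusted p = 0.000505) for 6499c4 against 6419c5. Between 2838c3 and 6419c5 neither Zeb1 (-0.05, SE 0.11, adjusted p = 0.705) nor Snai2 (-0.28, SE 0.17, adjusted p = 0.196) passed. Twist1 was higher in 6499c4 than in 6419c5 by 2.13 (SE 0.17, adjusted p = 8.91e-05). Its fitted differences from 2838c3 depend on the pseudocount, since that line is at 0 and the gene entered the test through the other lines.

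**Figure D2:**
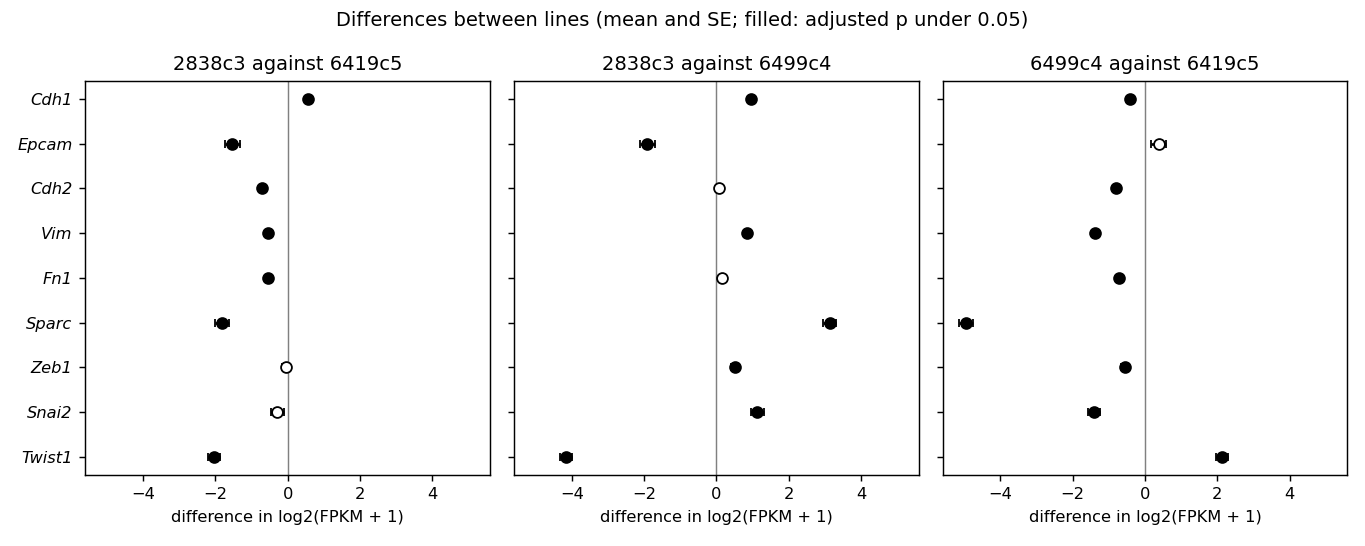
Differences in log2(FPKM + 1) between lines for the 9 tested members, one panel per pair, with the first-named line minus the second, bars of 1 SE, and filled points for adjusted p under 0.05. Against 6419c5, both other lines lie below 0 for Cdh2, Vim, Fn1 and Sparc, and Twist1 has its largest difference between 2838c3 and 6499c4. Epcam and Twist1 entered the test through lines other than 2838c3.

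To place the lines on one span, the mean log2(FPKM + 1) of Cdh1 and Epcam was set against that of the 4 mesenchymal members, as a description with no test. The epithelial minus mesenchymal value was -1.95 under G-1 and -2.41 under vehicle in 2838c3. It was -2.53 under G-1 and -2.67 under vehicle in 6419c5, and -0.46 under G-1 and -0.86 under vehicle in 6499c4. On this value line 6499c4 lay nearest the epithelial end and 6419c5 nearest the mesenchymal end, with 2838c3 close to 6419c5. Line 6499c4 had the lowest mesenchymal mean, with 5.55 under G-1 and 5.85 under vehicle. That mean was 6.68 and 6.82 in 2838c3, and 7.56 and 7.76 in 6419c5. Of the 4 genes in it, Sparc differed most between 6499c4 and either other line. The epithelial mean of 6499c4 was also above that of 2838c3, where Epcam was lowest. Cdh1 itself was lowest in 6499c4. The place of 2838c3 thus rests on Epcam and Sparc. It exceeded 6499c4 by 0.97 in Cdh1 and by less in Cdh2 (0.08), Vim (0.84) and Fn1 (0.16). Against 6419c5 it was higher in Cdh1 and lower in Cdh2, Vim and Fn1. Without Epcam and Sparc, 2838c3 would therefore lie nearest the epithelial end. With wider gene lists 6499c4 was again nearest that end. In each line the G-1 library was the nearer of the 2 to the epithelial end, by 0.46 in 2838c3, 0.14 in 6419c5 and 0.40 in 6499c4, shifts that were not tested. The epithelial mean was 4.73 under G-1 and 4.41 under vehicle in 2838c3, where Epcam had 20 and 5 reads, 5.03 and 5.09 in 6419c5, and 5.09 and 4.99 in 6499c4, while Cdh1 was at a lower level under G-1 in each line. In 6499c4 Sparc had the largest G-1 difference of the 4 mesenchymal members (-0.86), from 30 reads under G-1 and 82 under vehicle. The shift in 2838c3 was 0.94 with a pseudocount of 0.1. With wider gene lists the shifts were 0.00 in 2838c3, 0.20 in 6419c5 and 0.17 in 6499c4. With a pseudocount of 0.1 in place of 1, the means of 2838c3 and 6419c5 were -2.79 and -2.74, so their order turned, and 6499c4 stayed apart at -0.64.

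**Figure D3:**
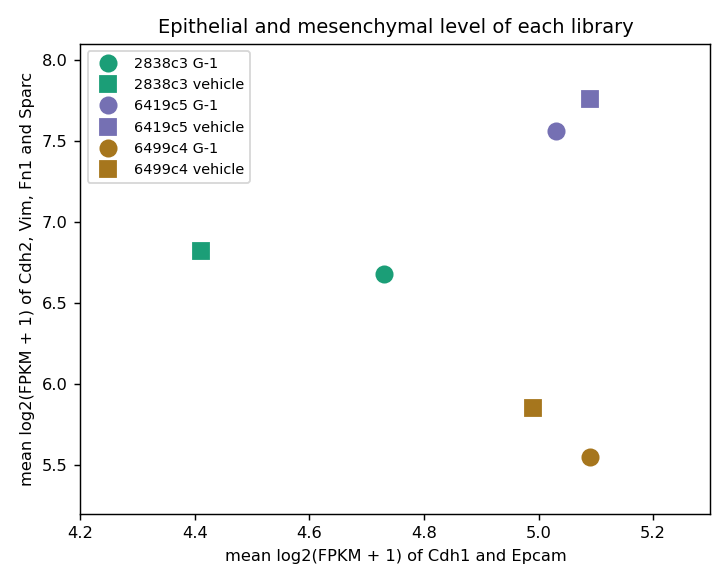
Each library placed by the mean log2(FPKM + 1) of Cdh1 and Epcam (horizontal) and of Cdh2, Vim, Fn1 and Sparc (vertical), coloured by line, with circles for G-1 and squares for vehicle. The lines separate along the vertical axis, from 5.55 in the G-1 library of 6499c4 to 7.76 in the vehicle library of 6419c5.

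Of 16 junction genes 1, Pvrl4, had a mean under 1 FPKM, and the levels of the others ran over a wide range. Ctnnb1 (beta-catenin) had 399 to 788 FPKM and Ctnna1 (alpha-catenin) 238 to 394 FPKM, and the tight junction gene F11r had 104 to 172 FPKM, while the tight junction genes Ocln and Marveld2 had 4.33 to 8.48 and 2.49 to 6.01 FPKM. Among 14 epithelial regulators 5 had a mean under 1 FPKM. Grhl2, a grainyhead factor that keeps Cdh1 active, had at most 7 reads in any library, and Esrp1, a splicing regulator of epithelial transcripts, had at most 3. Its paralogue Esrp2 had 13.5 to 25.4 FPKM, and the epithelial factors Elf3 and Klf5 had 26.1 to 56.6 and 29.4 to 69.2 FPKM. Of the 12 polarity and surface genes 5 were under 1 FPKM on average, among them the vesicle traffic gene Rab25 with at most 2 reads in a library, whereas the mucin gene Muc1 had 106 to 157 FPKM.

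The wider mesenchymal list was split in the same way. Of its 23 genes 10 had a mean under 1 FPKM. The collagen gene Col1a2 and Postn, which encodes periostin, had 0 reads in every library, and Col3a1 and the N-cadherin relative Cdh11 had at most 4. The receptor tyrosine kinase gene Axl had 126 to 284 FPKM and S100a4 had 50.8 to 205 FPKM. Line 6419c5 alone reached high levels of the smooth muscle actin gene Acta2, with 137 FPKM under G-1 and 224 FPKM under vehicle, against 0.182 and 0.227 FPKM in 2838c3 and 2.47 and 2.12 FPKM in 6499c4. Fstl1 had 27.9 and 34.5 FPKM in 6419c5, 1.88 and 1.75 FPKM in 2838c3, and 1 and 4 reads in 6499c4.

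**Figure D4:**
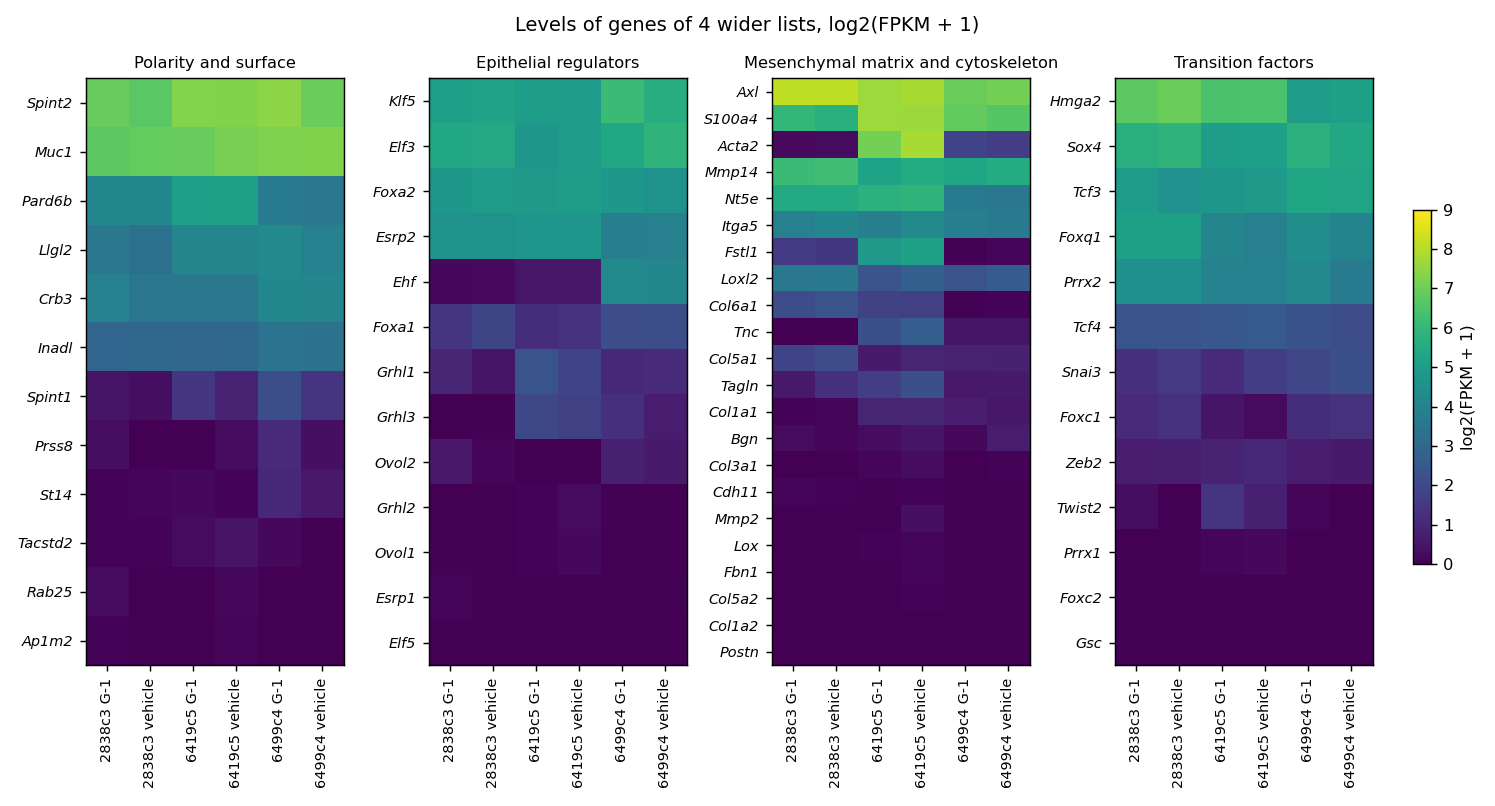
Levels as log2(FPKM + 1), by colour, of genes of 4 wider lists in the 6 libraries, sorted by their mean within a list. The lower rows of each list, such as Grhl2, Esrp1, Rab25, Col1a2 and Postn, are dark in all libraries, while Acta2 and Fstl1 are bright in 6419c5 and Ehf in 6499c4.

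The tested mesenchymal genes were mostly lower in 6499c4 than in either other line, and split between 2838c3 and 6419c5, with 5 of 13 higher and 6 lower in 2838c3. Counts over the lists are descriptions, since a gene nearly silent in 1 line could enter the test through the others. The median over all genes is closely fixed by the scaling of the libraries and is given for reference only. Of the 13 genes, 0 were higher and 9 lower in 6499c4 than in 6419c5 (median log2 difference -1.28, against 0.01 over all genes), where 21.3% of all genes were higher and 23.7% lower. For 2838c3 against 6499c4, 8 were higher and 2 lower (median 1.10, against 0.01), where 28.9% of all genes were higher and 26.6% lower. Of 7 tested polarity and surface genes, 0 were higher and 5 lower in 2838c3 than in 6419c5 (0 and 3 with quantile scaling), where 25.3% and 26.2% of all genes were, and 1 was higher and 6 lower in 2838c3 than in 6499c4. Desmosome genes were mostly lower in 2838c3 and in 6499c4 than in 6419c5, with 1 of 9 higher and 6 lower in either comparison. Dsp, the gene of desmoplakin, was the 1 gene of that list called higher in 2838c3 in both of its comparisons. It had 92.6 FPKM under G-1 and 99.3 FPKM under vehicle in 2838c3, against 19.3 and 15.7 FPKM in 6499c4 (log2 difference 2.39, SE 0.10, adjusted p = 3.65e-06). Dsc2, which encodes a desmosomal cadherin, had 0.398 and 0.185 FPKM in 2838c3, against 8.82 and 7.89 FPKM in 6419c5. It lay under the filter level in 2838c3 and entered the test through the other lines, so these levels are given with no test. Of 15 tested junction genes, 3 were higher and 6 lower in 2838c3 than in 6419c5 (median -0.25, or 0.06 with quantile scaling), 5 higher and 8 lower in 2838c3 than in 6499c4, and 5 higher and 7 lower in 6499c4 than in 6419c5. Among them Cdh3, the P-cadherin gene, had 1.51 FPKM under G-1 and 0.893 FPKM under vehicle in 6499c4, against 26.6 and 33.2 FPKM in 6419c5 (-3.81, SE 0.21, adjusted p = 1.61e-05).

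Of 9 epithelial regulators tested, 1 was higher and 3 lower in 2838c3 than in 6419c5, where 51.5% of all genes were called, and 1 was higher and 5 lower in 2838c3 than in 6499c4, where 55.6% were. In 6499c4 against 6419c5, 5 were higher and 3 lower, where 21.3% and 23.7% of all genes were. Ehf, an ETS factor of epithelia, had 18.9 FPKM under G-1 and 17.1 FPKM under vehicle in 6499c4, and at most 15 reads in a library of either other line. It entered the test through 6499c4 alone, so its levels are given with no test. Of 7 other transition factors tested, 4 were higher and 0 lower in 2838c3 than in 6419c5, where 25.3% and 26.2% of all genes were. The counts were 3 higher and 2 lower in 2838c3 than in 6499c4, and 3 higher and 1 lower in 6499c4 than in 6419c5. Hmga2, a chromatin protein gene, had 106 FPKM under G-1 and 124 FPKM under vehicle in 2838c3, against 29.5 and 33.3 FPKM in 6499c4 (1.84, SE 0.08, adjusted p = 3.87e-06). Foxq1 (1.10, SE 0.11, adjusted p = 0.000191) and Sox4 (0.68, SE 0.13, adjusted p = 0.00451) were higher in 2838c3 than in 6419c5, and Sox4 lost the call without the G-1 library of 6419c5 (0.62, adjusted p = 0.0682, against 8.47e-07 to 0.0682 over all alternatives). Zeb2 had at most 33 reads in a library, and Foxc2 and Gsc had 0. Corepressors that Snail and Zeb recruit were read in all lines, with Hdac1 at 35.9 to 52.1 FPKM and Ctbp1 at 93.5 to 111 FPKM. The list as a whole had 2 of 8 genes higher and 2 lower in 2838c3 against either other line.

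TGF-beta signalling is a pathway that drives the transition. Of 10 of its genes tested, 8 were higher and 1 lower in 2838c3 than in 6499c4 (median 0.56), or 6 and 1 with quantile or total-read scaling, where 28.9% of all genes were higher and 26.6% lower. In 6499c4 against 6419c5, 0 were higher and 6 lower, or 1 and 4 with total-read scaling, where 21.3% of all genes were higher and 23.7% lower. The ligand gene Tgfb1 was higher in 2838c3 than in 6499c4 by 1.31 (SE 0.12, adjusted p = 0.000103), and the ligand gene Tgfb3 was lower in 2838c3 than in 6499c4 (-1.76, SE 0.14, adjusted p = 6.00e-05). Tgfb3 had 1.07 FPKM under G-1 and 1.69 FPKM under vehicle in 2838c3, against 6.63 and 7.42 FPKM in 6499c4. Ski, a brake on the pathway, was lower in 6499c4 than in 6419c5 (-1.27, SE 0.09, adjusted p = 5.79e-05). Like Tgfb1, Ski was higher in 2838c3 than in 6499c4 (0.73, SE 0.09, adjusted p = 0.000497). The list thus joins genes that promote the pathway with brakes on it, and its counts do not measure pathway activity.

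Since Snail and Zeb factors bind the E-box, the 250 bases before the start of each gene were searched for the letters CACCTG and its reverse complement CAGGTG, which covers both strands. RefSeq windows of GRCm38.p6 were matched by symbol for 5 of the 10 members (Epcam, Vim, Sparc, Snai1 and Twist1). The motif stood in 5252 of 27025 genes with a window, or 19.4%. Epcam, the weakly read epithelial member, held it at positions -187 and -19 counted to the first base of the motif from the start of the gene, and Snai1 held it at -126. The windows of Vim and Twist1 hold no such letters in these 250 bases, and they are shown beside Epcam because they are the strongest mesenchymal member and the factor that differed most between lines. Rab25 and Muc1 are shown as a silent and a strongly read epithelial gene that both hold the motif, and they were chosen after their values were seen. Capitals mark the motif, each sequence runs 5′ to 3′ on the strand of its gene.
Epcam, chr17:87635729-87635978, plus strand: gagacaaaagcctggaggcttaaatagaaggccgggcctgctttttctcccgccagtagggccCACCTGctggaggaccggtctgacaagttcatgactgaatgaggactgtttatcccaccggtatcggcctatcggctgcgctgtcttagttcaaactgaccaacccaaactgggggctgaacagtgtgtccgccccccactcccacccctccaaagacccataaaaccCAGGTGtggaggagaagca
Snai1, chr2:167537945-167538194, plus strand: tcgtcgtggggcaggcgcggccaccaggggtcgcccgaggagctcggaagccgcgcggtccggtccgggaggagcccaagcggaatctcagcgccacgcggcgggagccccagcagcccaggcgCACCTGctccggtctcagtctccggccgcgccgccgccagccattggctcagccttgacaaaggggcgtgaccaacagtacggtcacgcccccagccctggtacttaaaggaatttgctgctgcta
Vim, chr2:13574061-13574310, plus strand: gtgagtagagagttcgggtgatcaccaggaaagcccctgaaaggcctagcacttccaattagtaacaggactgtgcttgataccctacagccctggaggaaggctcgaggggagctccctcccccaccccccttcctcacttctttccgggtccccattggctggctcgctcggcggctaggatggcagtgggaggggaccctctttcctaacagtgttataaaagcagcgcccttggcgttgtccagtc
Twist1, chr12:33957421-33957670, plus strand: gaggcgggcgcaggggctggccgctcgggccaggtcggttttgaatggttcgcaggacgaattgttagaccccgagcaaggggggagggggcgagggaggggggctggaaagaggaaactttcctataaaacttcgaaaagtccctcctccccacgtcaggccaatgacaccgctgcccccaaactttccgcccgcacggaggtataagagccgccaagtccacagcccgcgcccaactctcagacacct
Rab25, chr3:88548280-88548529, minus strand: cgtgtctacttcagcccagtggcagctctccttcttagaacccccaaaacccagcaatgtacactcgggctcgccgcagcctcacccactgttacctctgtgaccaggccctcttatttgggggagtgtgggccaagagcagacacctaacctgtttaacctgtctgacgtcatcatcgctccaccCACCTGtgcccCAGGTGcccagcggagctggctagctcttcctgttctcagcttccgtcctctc
Muc1, chr3:89228806-89229055, plus strand: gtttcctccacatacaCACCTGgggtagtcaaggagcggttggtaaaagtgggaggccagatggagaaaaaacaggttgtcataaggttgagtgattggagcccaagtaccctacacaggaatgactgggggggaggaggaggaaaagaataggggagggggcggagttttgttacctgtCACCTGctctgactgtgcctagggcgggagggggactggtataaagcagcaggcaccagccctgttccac

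The 4 epithelial lists together held the motif in 16 of 28 genes with a window (57.1%). They differed among themselves, with 7 of 8 polarity and surface genes, 4 of 7 regulators, 5 of 12 junction genes and 0 of 1 desmosome genes. The motif was absent from the mesenchymal list (0 of 15) and the other transition factors (0 of 9). It was equally absent from the corepressors (0 of 7) and the TGF-beta genes (0 of 6), so its absence was not particular to mesenchymal genes. Within the epithelial lists the share was much the same for genes that were read and for those that were not, at 13 of 23 genes (56.5%) that averaged 1 FPKM or more and 3 of 5 (60%) below that level. Rab25, with the motif, had at most 2 reads in a library, and Muc1, with the motif, 1457 or more. These are matches of letters, with no test, and they say nothing of which factor is bound.

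G-1 left all 9 tested members without a call. None passed in limma on log2(FPKM + 1), where 0.0279% of all genes did (3 of 10748), 0.00930% higher and 0.0186% lower. An unadjusted p under 0.05 was reached by 2 members, Fn1 and Cdh2, and by 10.1% of all genes. Fn1 had fewer reads under G-1 than under vehicle for its library size in all 3 lines, with 4295 against 5626 reads in 2838c3, 4154 against 6768 in 6419c5 and 3893 against 4983 in 6499c4. The read ratios of G-1 to vehicle on the scale of the FPKM were 0.766 (95% interval 0.736 to 0.797), 0.805 (0.775 to 0.837) and 0.892 (0.855 to 0.931) in the same order of lines. All 3 intervals lie below 1, and they cover counting error only. Averaged over the lines, Fn1 differed by -0.28 in log2(FPKM + 1) (SE 0.06, limma adjusted p = 0.300). In limma-voom on the recovered reads it was -0.29 with an adjusted p of 0.00318, against 0.00318 to 1.00 over the alternatives. Limma-voom calls 1.59% of all genes, and both fits lean on variances pooled over genes.

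Cdh2 behaved likewise, with 1198 reads under G-1 against 1483 under vehicle in 2838c3, 1290 against 2048 in 6419c5 and 1123 against 1423 in 6499c4. Its ratios, again all with intervals below 1, were 0.810 (95% interval 0.750 to 0.875), 0.827 (0.770 to 0.887) and 0.901 (0.833 to 0.975). Averaged over the lines, Cdh2 differed by -0.24 in log2(FPKM + 1) (SE 0.06, limma adjusted p = 0.363), and voom gave an adjusted p of 0.0456, against 0.0456 to 1.00 over the alternatives. Cdh1 and Zeb1 were also at lower levels under G-1 in each line, by small amounts: the mean log2 differences were -0.07 (SE 0.05, adjusted p = 0.692) and -0.15 (SE 0.09, adjusted p = 0.603) in limma. In all, 4 of the 9 members were at lower levels in all 3 lines, where 17.5% of all genes were, and 0 were at higher levels in all 3, where 15.4% were.

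**Figure D5:**
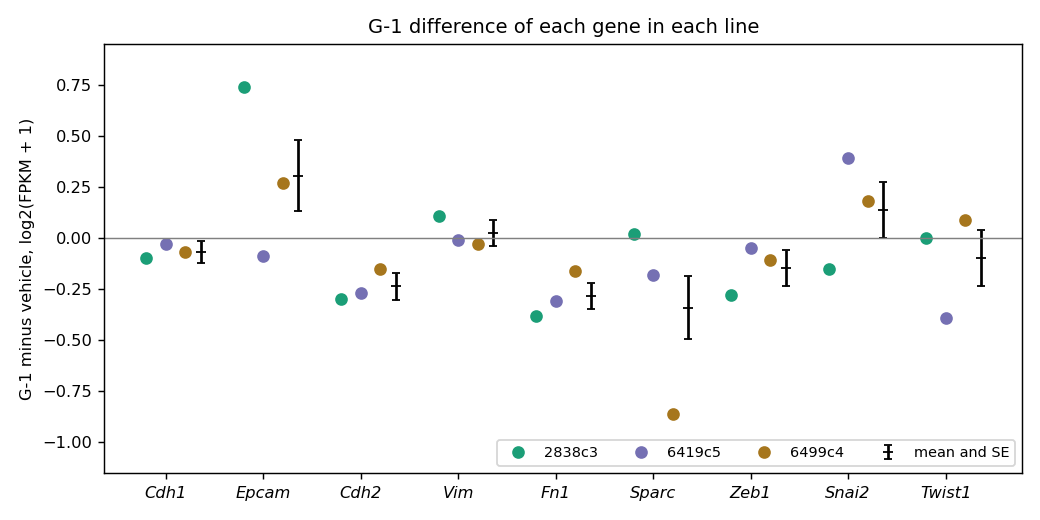
G-1 minus vehicle in log2(FPKM + 1) for the 9 tested members, with 1 point per line and the mean over lines with its SE at the right of each gene. The points of Cdh1, Cdh2, Fn1 and Zeb1 are below 0 in all 3 lines, Epcam is at 0.74 in 2838c3 and Sparc at -0.86 in 6499c4.

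None of the other members passed for G-1, and their lines differed. Epcam had a read ratio of 4.01 (95% interval 1.46 to 13.7) in 2838c3, from 20 reads under G-1 and 5 under vehicle, against 0.928 (0.606 to 1.41) in 6419c5 and 1.25 (0.923 to 1.68) in 6499c4. Its mean log2 difference was 0.31 (SE 0.17, limma adjusted p = 0.585), and 0.09 without 2838c3. Sparc had a ratio of 0.418 (0.265 to 0.642) in 6499c4, where it is nearly silent, 0.882 (0.823 to 0.946) in 6419c5 and 1.01 (0.906 to 1.14) in 2838c3, for a mean of -0.34 (SE 0.16, adjusted p = 0.516) that was -0.08 without 6499c4. Vim, the most abundant member, had ratios of 1.08 (1.06 to 1.09), 0.994 (0.979 to 1.01) and 0.979 (0.959 to 1.00) in 2838c3, 6419c5 and 6499c4, and a mean of 0.02 (SE 0.06, adjusted p = 0.922). For Snai2 (0.14, SE 0.14, adjusted p = 0.757) and Twist1 (-0.10, SE 0.14, adjusted p = 0.841) the interval of the read ratio included 1 in each line with reads. With 1 library per treatment in each line, a difference between lines in their response to G-1 could not be tested.

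None of the 78 tested genes in the 8 wider lists passed for G-1 either. Epithelial regulators were at higher levels in all 3 lines in 0 of 9 cases and at lower levels in 2, and junction genes in 3 and 3 of 15. Of 13 tested mesenchymal genes, 1 was at higher and 4 at lower levels in all 3 lines, where 15.4% and 17.5% of all genes were. Among polarity and surface genes, 4 of 7 were at higher levels in all 3 lines and 1 at lower levels, where 15.4% and 17.5% of all genes were. Spint1, the gene of a membrane protease inhibitor, had 8 reads under G-1 against 5 under vehicle in 2838c3, 21 against 13 in 6419c5 and 63 against 34 in 6499c4 (0.50, SE 0.17, adjusted p = 0.420). Desmosome genes were at higher levels in all 3 lines in 4 of 9 cases, with Dsc2 at 0.31 (SE 0.13, adjusted p = 0.497). TGF-beta signalling genes were at lower levels in all 3 lines in 5 of 10 cases, where 17.5% of all genes were, with Tgfb3 at -0.28 (SE 0.12, adjusted p = 0.480). The smooth muscle gene Tagln was at -0.40 (SE 0.18, adjusted p = 0.511), Snai3 at -0.35 (SE 0.14, adjusted p = 0.466) and Grhl1 at 0.27 (SE 0.17, adjusted p = 0.626).

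The genes whose profile over the 6 libraries was most like that of Cdh1, by Pearson's r of log2(FPKM + 1) among 1329 genes that averaged 5 FPKM or more and varied between lines, were Vcl (1.000), Sntb2 (0.999) and Tpm4 (0.998). Vcl encodes vinculin, which links adhesion sites to actin, and had 165 FPKM under G-1 and 191 FPKM under vehicle in 2838c3, 85.9 and 88.8 FPKM in 6419c5, and 51.1 and 56.6 FPKM in 6499c4. Closest to Vim were the kinase gene Sgk1 (0.999), Cblb (0.998) and Nedd4l (0.997), and closest to Sparc were Anxa1 (0.999), Clic4 and Sgk1 (0.997 each). The 6 libraries come from 3 lines, so such values rest on little more than the order and spacing of 3 levels and are given as a description.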

How the data were processed

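The authors deposited 1 table of FPKM values for 24421 gene symbols and 6 libraries. In their processing notes the submitters name STAR and DESeq2, without role or version. Build, annotation, strandedness and counting rule: not given in the sources used here. Fn1 and Zeb1 each overlap exons of 1 annotated gene on the other strand, which had at most 3 reads. Whole reads were recovered for all 15712 genes above 0 within 0.01 reads. For the members, the step times the longest coding transcript was 0.869 to 1.19 times the median gene, so no common divisor was missed.

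The 10748 genes averaging 1 FPKM or more were fitted as log2(FPKM + 1) in limma 3.58.1 (R 4.3.3) with line and treatment as terms and a variance trend, for G-1 against vehicle and for pairs of lines, two-sided, with Benjamini-Hochberg adjustment and a threshold of 0.05. The fit was tested on simulated data. Differences on this scale understate those of low genes. Libraries are paired by cell line, and both libraries of a line deviated together (correlations 0.906, 0.871 and 0.882). Read ratio intervals are exact binomial ones at 95%, and intervals and floors cover counting error only.

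The members and lists were chosen with earlier results of these data known. Beyond the members, the text names up to 3 genes per list with the widest range of line means, the gene with the largest G-1 difference, the genes closest in profile to Cdh1, Vim and Sparc, and, after their values were seen, Ctnnb1, Ctnna1, F11r, Grhl2, Esrp1, Esrp2, Pvrl4, Ocln, Marveld2, Elf3, Klf5, Rab25, Muc1, Col1a2, Postn, Col3a1, Cdh11, Axl, S100a4, Zeb2, Foxc2, Gsc, Hdac1, Ctbp1 and Cdh5. A few genes of the lists are not reported here by name, and they stayed in every fit and count. The alternatives were other pseudocounts, level filters, scalings, no variance trend, no line term, limma-voom on recovered reads, and leaving out lines or libraries.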

Additional observations from a re-analysis of the deposited data

How the results depend on the processing

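Each call of a member between lines kept its side of the threshold in all alternatives, apart from the losses of Zeb1 given above, and no called member changed direction. These calls include those of Epcam and Twist1 against 2838c3, which entered the test through the other lines. The G-1 test called 3 genes, against 1 with a pseudocount of 0.1, 0 without the level filter and 6 with a minimum of 5 FPKM. It called 0 without the variance trend and 168 in voom. Without the line term it called 0 (25 genes at an unadjusted p under 0.05), a setting in which the differences between lines enter the spread. Leaving out 1 line gave 0 to 11 genes, with 0 without 6419c5 and 11 without 6499c4. Between lines, leaving out 1 library gave 3430 to 5677 genes for 2838c3 against 6419c5 (5533 in full, 3590 without the G-1 and 3430 without the vehicle library of 6419c5) and 2612 to 4708 for 6499c4 against 6419c5 (4836 in full, 2612 and 3003 without the same libraries). Signs turned for members without a call: Cdh2 between 2838c3 and 6499c4 with total-read scaling (-0.05), Zeb1 between 2838c3 and 6419c5 without a G-1 library (0.04 without that of 2838c3, 0.02 without that of 6419c5, and -0.15 to 0.04 over all left-out libraries), Vim under G-1 without 2838c3 (-0.02) and Twist1 under G-1 in voom (0.02) and without 6419c5 (0.05, and -0.19 to 0.05 over all left-out lines). The causes were not tested. Total-read scaling moved the median of all genes to -0.11 for 2838c3 against 6499c4 and to 0.10 for 6499c4 against 6419c5, and the share of calls that were higher to 39.6% and 60.4%, against 52.1% and 47.4%. The span of the lines with a pseudocount of 0.1 was -2.79 in 2838c3 and -2.74 in 6419c5. With wider lists, which hold other genes, it was 2.09 in 2838c3, 1.86 in 6419c5 and 2.66 in 6499c4, where 6499c4 was again nearest the epithelial end. Low read counts limit Snai1 in every library and Epcam and Twist1 in 2838c3, whose libraries had the most reads of their treatment.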

Other observations

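Another cadherin gene was read in a single line. Cdh5, which encodes the cadherin of endothelial cells, had 22 reads under G-1 and 45 under vehicle in 6419c5 and 0 in the 4 other libraries. The other endothelial markers in 6419c5 were at or near 0, with 0 reads of Pecam1 and Kdr in both libraries and 3 and 8 reads of Tek.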
